A study of Mus musculus with 2 samples.

Results

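Marcks, Marcksl1 and Basp1 are 3 of the 27998 genes counted in each of 2 single-cell RNA libraries from mouse spinal cord, and all 3 were found by symbol in both libraries. They were chosen with their levels in these cell classes and libraries, and their co-expression over microglia, already in view, so those values are given as a description and carry no test. MARCKS, the myristoylated alanine-rich C-kinase substrate, sits on the inner face of the plasma membrane, where it sequesters the lipid PIP2 and cross-links actin. Phosphorylation by protein kinase C or binding of calcium-loaded calmodulin releases it and frees the lipid. MARCKSL1, also called MacMARCKS, is a smaller relative first described in macrophages as a product of genes induced by bacterial lipopolysaccharide, and BASP1 is a myristoylated membrane protein of growth cones with a similar calmodulin-regulated basic domain, which can also act as a nuclear corepressor. In microglia, the macrophages that reside in brain and spinal cord, such proteins link membrane signalling to ruffling, process movement and phagocytosis.

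The study asked what deletion of the transcription factor Runx1 does to spinal microglia. Both groups were C57BL/6J-background mice of the strain Cx3cr1-CreERT2-YFP::flxRunx1, in which the promoter of Cx3cr1, a chemokine receptor gene that microglia and other phagocytes use, drives a tamoxifen-inducible Cre and a yellow fluorescent protein, beside floxed Runx1 alleles. The group labelled Runx1 knock-out had tamoxifen at 1 mg per day in 5 daily injections and the group labelled wild type had vehicle, so tamoxifen and the deletion cannot be told apart. Spinal cords were taken 4 weeks after the first injection. In both groups the tissue was digested with collagenase at 2 mg per ml for 30 min at 37 °C. What this digestion did to RNA levels was not tested. Fluorescent cells were then sorted into 1 library per group. The age and number of the mice behind each library are not given in the sources used here. With 1 library per group there is no replicate check and no test. Ranges in brackets are 95% intervals for counting error alone.

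The library labelled knock-out held 2604 barcodes and 13075939 UMIs (unique molecular identifiers, each 1 captured RNA molecule), with a median of 3715.5 per barcode, and the wild-type library held 4582 barcodes and 37446978 UMIs, with a median of 6376. The libraries shared 9 barcodes. Microglia-like cells, whose summed RNA held all 13 microglia markers, numbered 1354 of 2596 filtered cells in the library labelled knock-out and 2186 of 4582 in the wild-type library. They fell into separate clusters, since cluster 2 held 1349 of the cells labelled knock-out and no wild-type cell, and cluster 0 held all of the wild-type ones. The 10 leading genes of cluster 2 were Cfp, Cebpb, AB124611, Tnfaip3, Socs3, Zfp36, Cmtm6, Crybb1, Gem and Ccl2. A cluster made of 1 library may be that library rather than a state. The members were left out of the clustering. Microglia-like cells also held endothelial marker RNA, with 4836 CPM (counts per 1000000 UMIs of the same cells) in the library labelled knock-out and 11664.5 CPM in the wild-type library over 10 markers, none of them at 0. Their erythrocyte markers summed to 1755 CPM in the library labelled knock-out and 3424 CPM in wild type. The part of this RNA in the members' values was not tested, apart from the background estimates given below. Runx1 itself had 181 CPM (170 to 192) in microglia-like cells labelled knock-out and 92.5 CPM (87.8 to 97.4) in wild-type ones, a log2 ratio of 0.97 (0.85 to 1.08). The tags come from transcript 3′ ends and the deleted part of Runx1 is not named in the labels, so they check nothing about the deletion.

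The 3 genes lie on different chromosomes of GRCm38 and none overlaps another gene in GENCODE M21. Marcks (ENSMUSG00000069662) is at chr10:37133375-37138920 on the minus strand with 2 exons, Marcksl1 (ENSMUSG00000047945) at chr4:129513581-129515985 on the plus strand with 2 exons, and Basp1 (ENSMUSG00000045763) at chr15:25363277-25413764 on the minus strand with up to 3 exons in 2 transcripts. GENCODE M21 also annotates a pseudogene, Marcksl1-ps4, which was not analysed here, and whether tags of Marcksl1 also match it was not tested. RefSeq promoter sequences of GRCm38.p6, from 250 bases before to 50 after the start, were matched for Marcksl1 and Basp1. The promoter set used held no entry for Marcks, so its promoter could not be shown. Those of Marcksl1 and Basp1 are shown because Runx1 is a DNA-binding factor. These 2 members also had the largest differences between the libraries. Capitals mark GC boxes (GGGCGG or its reverse complement) and the RUNX letters TGTGGT, and both run 5′ to 3′ in the direction of transcription.
Marcksl1 promoter (chr4:129513331-129513630, plus strand): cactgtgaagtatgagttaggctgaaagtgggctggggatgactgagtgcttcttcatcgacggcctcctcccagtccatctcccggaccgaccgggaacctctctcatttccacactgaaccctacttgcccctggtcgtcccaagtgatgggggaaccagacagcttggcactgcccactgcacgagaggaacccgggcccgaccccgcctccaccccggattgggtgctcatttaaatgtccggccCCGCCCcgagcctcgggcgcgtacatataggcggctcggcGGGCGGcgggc
Basp1 promoter (chr15:25413715-25414014, minus strand): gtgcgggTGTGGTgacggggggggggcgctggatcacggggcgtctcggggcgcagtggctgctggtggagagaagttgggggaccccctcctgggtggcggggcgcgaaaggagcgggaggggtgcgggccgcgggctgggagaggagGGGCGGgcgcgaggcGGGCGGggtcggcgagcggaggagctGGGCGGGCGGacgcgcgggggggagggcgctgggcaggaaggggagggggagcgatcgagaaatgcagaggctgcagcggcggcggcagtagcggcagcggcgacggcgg

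The Marcksl1 promoter had 63.7% G and C and the Basp1 promoter 78%, where the median of all promoters was 52.7%. GC boxes were found at positions -1 and 39 of Marcksl1, counted from the start as 0, and at -101, -86, -60 and -56 of Basp1, where the last pair shares bases. GC boxes are present in 35.7% of the 32851 promoters of this length. The RUNX letters TGTGGT were found once, at position -243 of Basp1, and occur in 16.8% of all promoters. Neither promoter held the RUNX letters TGCGGT (in 6.45% of promoters), the TATA box TATAAA (13.6%), the AP-1 letters TGANTCA (7.81%), the CRE TGACGTCA (1.79%), the C/EBP letters TTNCNNAA (40.7%) or the PU.1 letters GAGGAAGT (3.20%), searched on both strands. These matches describe letters in the windows and are not measured binding sites.

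In microglia-like cells the library labelled knock-out had the higher level of all 3 members, by very different amounts. Marcksl1 was 5.07-fold higher, Basp1 2.00-fold and Marcks 1.40-fold, while the median log2 ratio over all 5760 genes at 20 CPM or more in either library was -0.04. At least 2-fold higher levels were found for 2 of the 3 members, beside 1.84% of all 5760 genes, and none of the 3 was at least 2-fold lower, beside 5.42%. Because the members were chosen from this contrast, nothing is read from these counts. The Basp1 interval, from 1.92-fold to 2.08-fold, spans the 2-fold line, so its place on that line is not fixed by these counts. With the estimated background removed, the log2 ratios were 2.09 for Marcksl1, 0.70 for Basp1 and 0.24 for Marcks, so that 1 of the 3 members was at least 2-fold higher. The same estimate left the members at negative values in endothelial-like cells, between -142 and -11.5 CPM. How well it holds in microglia-like cells was not tested.

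Marcksl1, the smaller relative, had 3912 UMIs in microglia-like cells labelled knock-out, or 636 CPM (616 to 656), and 1982 UMIs in wild-type ones, or 126 CPM (120 to 131). The log2 ratio was 2.34 (2.26 to 2.42), which ranked 8 of 5760 genes from the highest. The library with fewer cells and fewer UMIs thus held more Marcksl1 molecules than the deeper one. Basp1 had 4051 UMIs or 659 CPM (639 to 679) in the cells labelled knock-out, and 5201 UMIs or 329 CPM (320 to 338) in wild-type cells. Its log2 ratio was 1.00 (0.94 to 1.06) and ranked 105 of 5760. Marcks, the founding member of the family, had 6161 UMIs or 1002 CPM (977 to 1027) in the cells labelled knock-out and 11299 UMIs or 715 CPM (702 to 729) in wild-type cells. Its log2 ratio of 0.49 (0.44 to 0.53) ranked 647 of 5760, so that 11.2% of all genes had a ratio as high or higher. The intervals of all 3 genes stood apart between the libraries.

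With each cell thinned to 1500 UMIs, the members differed both in the share of cells that held them and in the number of molecules per cell. A Marcksl1 UMI was present in 49.2% of microglia-like cells labelled knock-out (46.5 to 51.9) and in 16.4% of wild-type cells (14.8 to 18.0). Basp1 was present in 55.8% of cells labelled knock-out (53.1 to 58.5) and 35.4% of wild-type cells (33.4 to 37.5). Marcks was present in 74.1% of cells labelled knock-out (71.7 to 76.4) and 63.4% of wild-type cells (61.3 to 65.4). The intervals did not overlap between the libraries for any of the 3. Unthinned shares in the cells labelled knock-out were 74.9% for Marcksl1, 80.7% for Basp1 and 93.3% for Marcks, at a median depth of 3471 UMIs. In wild-type cells they were 47.4%, 76.5% and 94.9% for the same genes, at a median depth of 5530 UMIs. The gap in Marcks thus appeared at equal depth and not in the unthinned shares. Endothelial-like cells, which line vessels, are set beside them, and whether these cells express the members was not tested. At 1500 UMIs, endothelial-like cells labelled knock-out held Marcksl1 in 12.8%, Basp1 in 7.40% and Marcks in 20.4% of cells, with a median depth of 3588 UMIs before thinning. Wild-type endothelial-like cells held them in 6.42%, 9.66% and 29.3%, with a median depth of 5948.5 UMIs. Each member's share in microglia-like cells lay above its share in endothelial-like cells in both libraries.

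**Figure D1:**
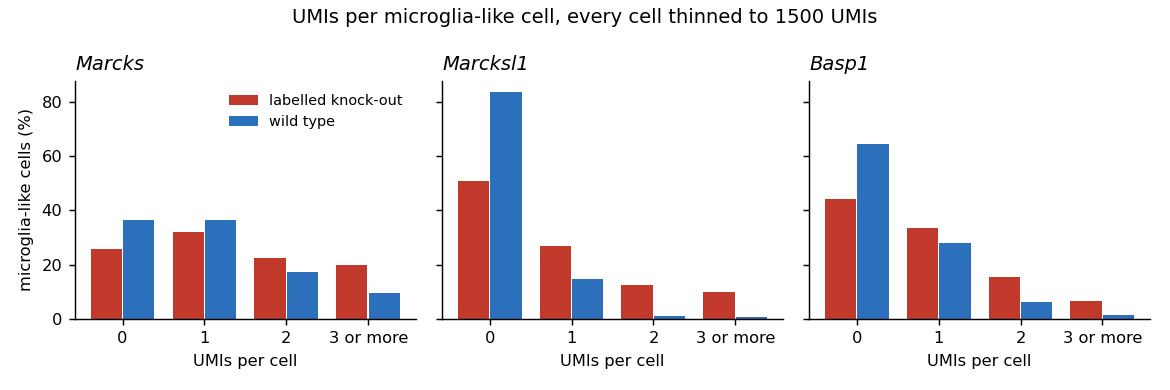
Percent of microglia-like cells (vertical axis) with 0, 1, 2 or 3 or more UMIs of each gene (horizontal axis) after thinning every cell to 1500 UMIs, in 1354 cells of the library labelled knock-out (red) and 2186 wild-type cells (blue). Cells with 0 Marcksl1 UMIs were 50.8% of the cells labelled knock-out and 83.6% of wild-type cells, the widest gap of the 3 genes.

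The plot of UMIs per cell shows Marcksl1 to be spread unevenly over cells. At 1500 UMIs, 9.75% of microglia-like cells labelled knock-out held 3 or more Marcksl1 UMIs and the highest cell held 13, against 0.503% and a highest of 6 in wild-type cells. The variance over the mean, which is 1 for random sampling from identical cells, was 2.08 in the cells labelled knock-out and 1.22 in wild-type cells. For an unevenly spread gene this value rises with the mean, which was 0.927 UMIs in cells labelled knock-out and 0.188 in wild-type cells. The libraries are therefore not compared by it. The median over genes at 100 CPM or more was 1.04 over 1412 genes in the library labelled knock-out and 1.02 over 1462 genes in the wild-type one. Only 4.18% of genes in the cells labelled knock-out, and 7.25% in wild-type cells, had a value as high as that of Marcksl1. Those genes were not matched to it for their mean. Marcks and Basp1 were spread more evenly. Their variance over the mean was 1.11 and 1.15 in the cells labelled knock-out, and 1.09 and 1.03 in wild-type cells. For Marcks, 19.7% of cells labelled knock-out and 9.65% of wild-type cells held 3 or more UMIs, and for Basp1 6.65% of cells labelled knock-out and 1.28% of wild-type cells did.

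In the classes of the vessel wall the 3 genes did not differ together. Marcksl1 alone was higher in the library labelled knock-out for every class with at least 10 cells per library. In endothelial-like cells it had 95.3 CPM (86.0 to 105) in cells labelled knock-out and 45.3 CPM (41.6 to 49.3) in wild type, a log2 ratio of 1.07 (0.88 to 1.26) that ranked 32 of 6288 genes. That made 1 of 3 members at least 2-fold higher there, beside 0.7% of all genes, and 0 of 3 at least 2-fold lower, beside 2.77%. In pericyte or smooth muscle-like cells, the contractile cells around vessels, Marcksl1 had 125 CPM (103 to 150) in cells labelled knock-out and 58.4 CPM (48.6 to 69.6) in wild type, a log2 ratio of 1.09 (0.72 to 1.47). Again 1 of 3 members was at least 2-fold higher, beside 2.61% of 6754 genes, and 0 of 3 lower, beside 2.49%. The log2 ratio of Marcksl1 was 1.03 (0.26 to 1.82) in ependymal-like cells and 1.47 (0.80 to 2.17) in erythrocyte-like cells. These levels stand beside microglial marker RNA in the same cells, whose percentages are given further on.

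Marcks had the opposite direction in endothelial-like cells, with 173 CPM (161 to 187) in cells labelled knock-out and 239 CPM (230 to 248) in wild type, a log2 ratio of -0.46 (-0.58 to -0.34). The ratio in microglia-like cells and the ratio in endothelial-like cells thus have intervals on opposite sides of 0, and their difference was not tested. Basp1 had 57.2 CPM (50.1 to 65.1) in endothelial-like cells labelled knock-out and 63.7 CPM (59.2 to 68.4) in wild-type ones, and its log2 interval, -0.37 to 0.06, spans 0. In pericyte or smooth muscle-like cells both spanned 0, at -0.09 (-0.28 to 0.11) for Marcks and 0.07 (-0.28 to 0.42) for Basp1. The cycling cluster, of 17 cells labelled knock-out and 19 wild-type cells, carried the natural killer cell genes Gzma and Nkg7 beside microglial markers. With each library clustered on its own, both were among the 10 leading genes of the wild-type cycling cluster (18 cells). They were not among the 10 leading genes of the cycling cluster labelled knock-out (12 cells). Whether the cells compared were of the same kind was not tested. In the joint cycling cluster, the cells labelled knock-out had more of all 3 members. The log2 ratios there were 0.57 (0.16 to 0.98) for Marcks, 1.93 (1.20 to 2.70) for Marcksl1 and 1.68 (1.13 to 2.25) for Basp1. The unnamed cluster with microglial and endothelial markers together, of 135 cells labelled knock-out and 433 wild-type cells, had log2 ratios of 0.36 for Marcks, 2.05 for Marcksl1 and 0.81 for Basp1.

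**Figure D2:**
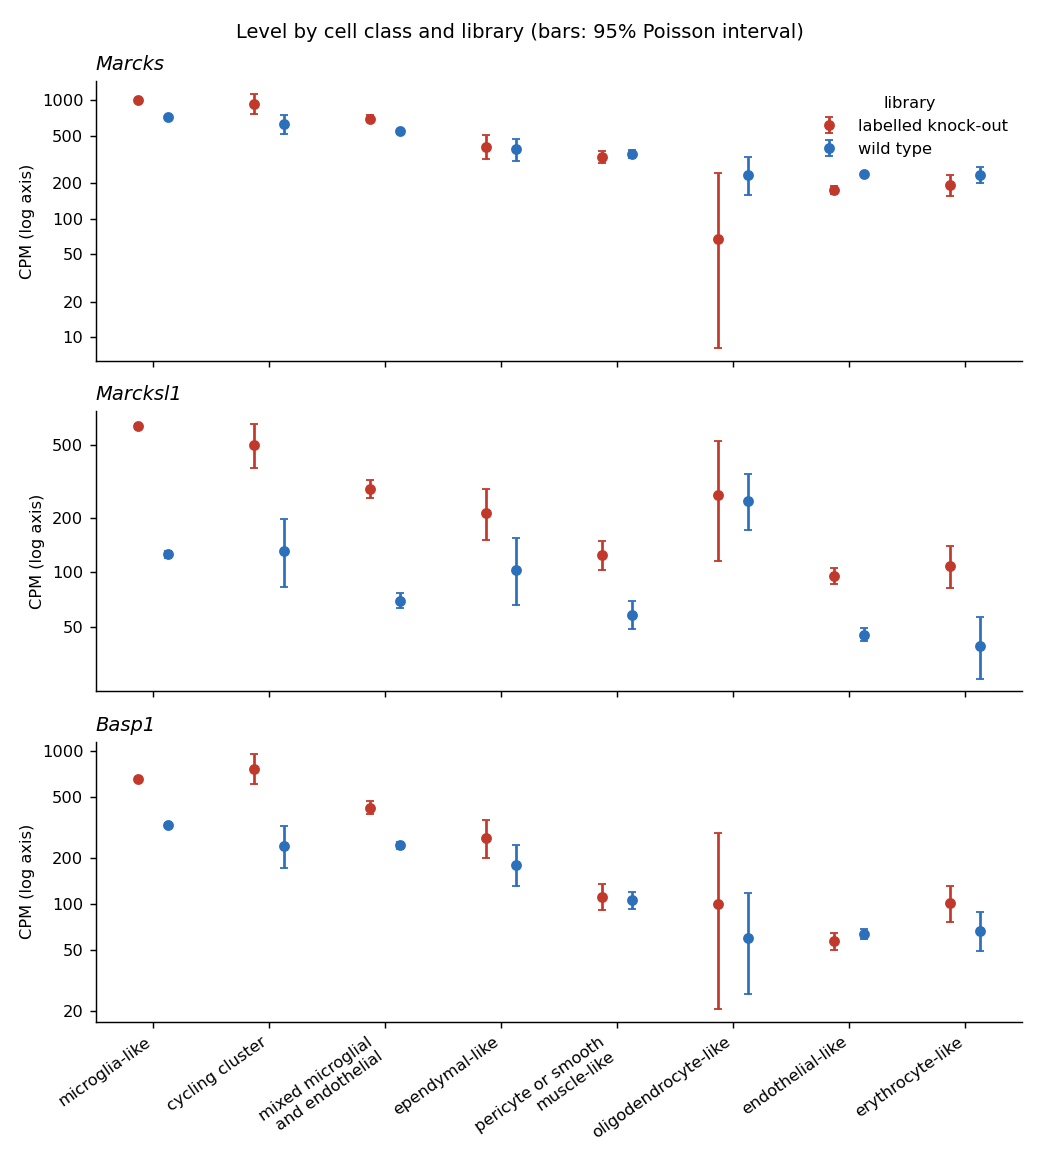
Level of each gene in CPM (vertical axis, log scale) by cell class (horizontal axis) in the library labelled knock-out (red, left of each pair) and the wild-type library (blue), 1 library each, with 95% Poisson intervals. Red lies above blue for Marcksl1 in each class, with overlapping intervals in ependymal-like and oligodendrocyte-like cells, while Marcks in endothelial-like cells is at 173 CPM in cells labelled knock-out and 239 CPM in wild-type cells.

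The order of levels over classes differed between the genes. Marcks was highest in microglia-like cells of both libraries, and its interval there overlapped that of the cycling cluster, at 927 CPM (754 to 1127) in cells labelled knock-out and 624 CPM (512 to 753) in wild type. Ependymal-like cells followed the mixed cluster, at 401 CPM in the library labelled knock-out and 383 CPM in wild type. Pericyte or smooth muscle-like cells came next, at 330 CPM in the library labelled knock-out and 350 CPM in wild type, with intervals that overlapped those of ependymal-like cells. Basp1 had the same order among the larger classes, with the cycling cluster at 769 CPM (613 to 953) beside microglia-like cells at 659 CPM in the library labelled knock-out, which overlapped. In wild type, Basp1 was highest in microglia-like cells, apart from the next class, the mixed cluster at 243 CPM (231 to 256), while its interval overlapped that of the cycling cluster at 240 CPM (173 to 325). Marcksl1 led in microglia-like cells of the knock-out label, where its interval overlapped that of the cycling cluster at 500 CPM (376 to 653). In wild type the highest Marcksl1 level was in oligodendrocyte-like cells, which make myelin, at 248 CPM (171 to 349) from 33 UMIs in 18 cells, which overlapped the cycling cluster and stood apart from microglia-like cells. The wild-type microglia-like level of 126 CPM overlapped that of the cycling cluster, 132 CPM (83.5 to 198), and of ependymal-like cells, 103 CPM (66.2 to 154). In the 8 oligodendrocyte-like cells labelled knock-out there were 8 Marcksl1 UMIs, 267 CPM (115 to 526), beside 2 UMIs of Marcks and 3 of Basp1. Such cells were too few for a ratio under the minimum of 10 cells. Neutrophil-like cells, 1 labelled knock-out and 6 wild type, held 0 Basp1 UMIs, which in wild type allows up to 91.2 CPM (the upper Poisson bound).

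RNA that leaves 1 cell type and enters other droplets can give a gene a level in cells that do not express it, so each member's level was set against the microglia markers in the same cells. In endothelial-like cells the 13 microglia markers stood at 21.05% of their microglia-like level in the library labelled knock-out and at 41.8% in wild type. In the library labelled knock-out, Marcks stood at 17.3%, Marcksl1 at 14.98% and Basp1 at 8.69% of their own microglia-like levels. In wild type they stood at 33.4%, 36.1% and 19.3%. All 6 values were below the marker percentage of their library, so the endothelial-like levels are not read as expression, and whether these cells express the members was not tested. Sparc, 1 of the 13 markers, had 3115 CPM in endothelial-like cells labelled knock-out and 3969 CPM in wild-type ones. In microglia-like cells it had 4498 CPM in the library labelled knock-out and 4054 CPM in wild type. The marker percentage without Sparc was not computed. Subtracting the estimated background left all 6 endothelial-like values below 0, between -142 and -11.5 CPM, so the estimate took away more than was present and no ratio was left. Erythrocyte-like cells, which carry globin RNA, had the microglia markers at 18.7% in the library labelled knock-out, beside 19.0% for Marcks, 17.0% for Marcksl1 and 15.3% for Basp1. In wild-type erythrocyte-like cells the markers were at 37.9%, beside 32.4%, 31.1% and 20.3%.

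Ependymal-like and oligodendrocyte-like cells stood apart from this pattern. In ependymal-like cells, the ciliated lining of the central canal, the markers were at 16.5% in the library labelled knock-out, where Marcks was at 40.0%, Marcksl1 at 33.2% and Basp1 at 40.8%. In wild-type ependymal-like cells the markers were at 36.4%, where Marcks was at 53.6%, Marcksl1 at 82.4% and Basp1 at 54.9%. Each of these 6 member values lay above its marker percentage, from 26 cells labelled knock-out and 17 wild-type cells. In oligodendrocyte-like cells labelled knock-out the markers were at 10.4%, Marcksl1 at 42.0%, Marcks at 6.66% and Basp1 at 15.2%. In wild-type ones the markers were at 29.2%, Marcksl1 at 198%, Marcks at 32.6% and Basp1 at 18.3%. Pericyte or smooth muscle-like cells had the markers at 26.3% in the library labelled knock-out, with Marcks above them at 32.9% and Marcksl1 and Basp1 below them at 19.6% and 17.0%. In wild type the markers were at 46.2%, with Marcks at 48.9%, Marcksl1 at 46.5% and Basp1 at 32.2%. No test was made of these differences.

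**Figure D3:**
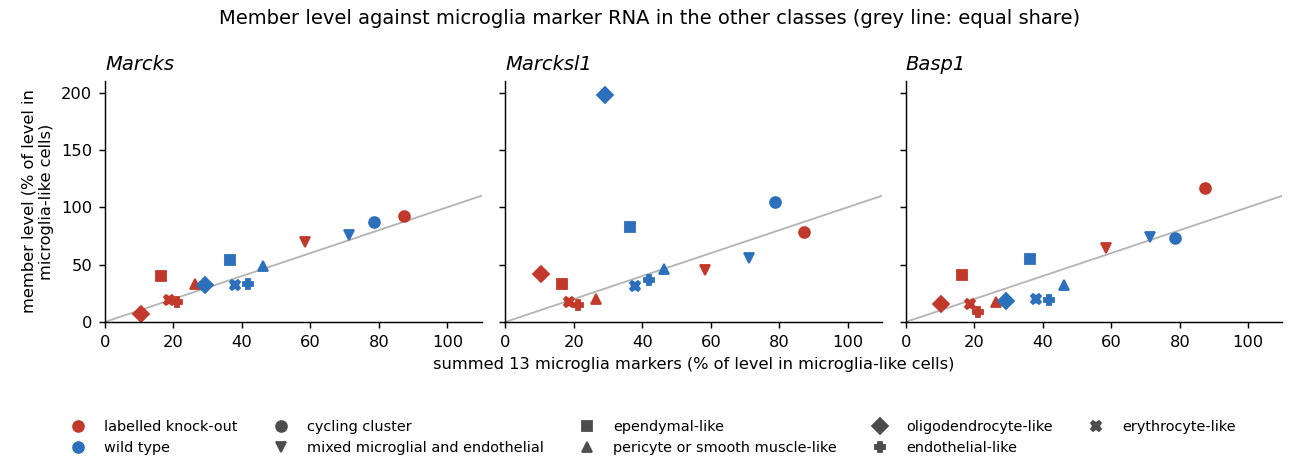
Level of each gene as a percent of its level in microglia-like cells of the same library (vertical axis) against the summed 13 microglia markers as a percent of theirs (horizontal axis), 1 symbol per class, for the library labelled knock-out (red) and wild type (blue), with a grey line of equal percent. Endothelial-like cells lie under the line for all 3 genes, and the wild-type oligodendrocyte-like cells lie far above it for Marcksl1, at 198% against 29.2%.

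Over single microglia-like cells at equal depth, correlations between the 3 genes were low. The cells of a library share their source, depth and free RNA, so correlations are a description. Pearson's r of log2(1 + UMIs) for Marcks and Basp1 was 0.115 over 1354 cells labelled knock-out and 0.035 over 2186 wild-type cells. Thinned to 3000 UMIs, it was 0.139 over 833 cells labelled knock-out and 0.063 over 2163 wild-type cells. Among 1273 genes at 100 CPM or more in both libraries, Basp1 ranked 2 for Marcks in the cells labelled knock-out and 71 in wild-type cells. Both were held by 43.0% of cells labelled knock-out, where the product of their shares is 41.4%, and by 23.2% of wild-type cells, where it is 22.4%. Marcks and Marcksl1 had an r of 0.042 in the cells labelled knock-out and 0.0009 in wild-type cells. They occurred together in 37.2% of cells labelled knock-out (product 36.4%) and 10.5% of wild-type cells (product 10.4%). Marcksl1 and Basp1 had an r of 0.0061 in the cells labelled knock-out and 0.0046 in wild-type cells, and shared 27.8% of cells labelled knock-out (product 27.5%) and 6.13% of wild-type cells (product 5.80%). The shares of cells with both genes lay close to the products for each pair. In counts this sparse, random sampling of molecules holds r low, so these values show neither a relation nor its absence and are no finding.

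Of the 5 genes most like Marcksl1, Cd83, Il1a and Nfkbia are on the inflammatory cytokine and NF-kB list. Ranked by the lower r of both libraries, they were Cd83, an activation marker of antigen-presenting cells (r 0.216 in the cells labelled knock-out and 0.139 in wild-type cells), the cytokine gene Il1a (0.144 knock-out label, 0.121 wild type), the chemokine gene Cxcl2 (0.116 knock-out label, 0.120 wild type), the stress-response phosphatase subunit Ppp1r15a (0.221 knock-out label, 0.109 wild type) and Nfkbia, the feedback inhibitor of NF-kB (0.192 knock-out label, 0.103 wild type). An r above 0.1 was found for 33 of 1273 genes in the cells labelled knock-out and for 7 in wild-type cells. Marcks had 7 such genes and Basp1 6 in the cells labelled knock-out, and both had 0 in wild-type cells. Each member had fewer UMIs per wild-type cell at equal depth, with a Marcksl1 mean of 0.188 against 0.927 in cells labelled knock-out. Sparser counts hold r lower, so these numbers of genes are not compared between the libraries. The 5 genes most like Marcks were the mitochondrial genes mt-Nd4 (0.108 knock-out label, 0.081 wild type) and mt-Co1 (0.103 knock-out label, 0.045 wild type), the RNA-binding gene Qk, the clathrin adaptor gene Picalm and the integrin gene Itgam. The 5 most like Basp1 were the transporter gene Slc15a3 (0.071 knock-out label, 0.046 wild type), Ifrd1, the Ras exchange factor gene Rasgrp3, Cebpzos and Ybx1, all with r under 0.1 in both libraries.

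**Figure D4:**
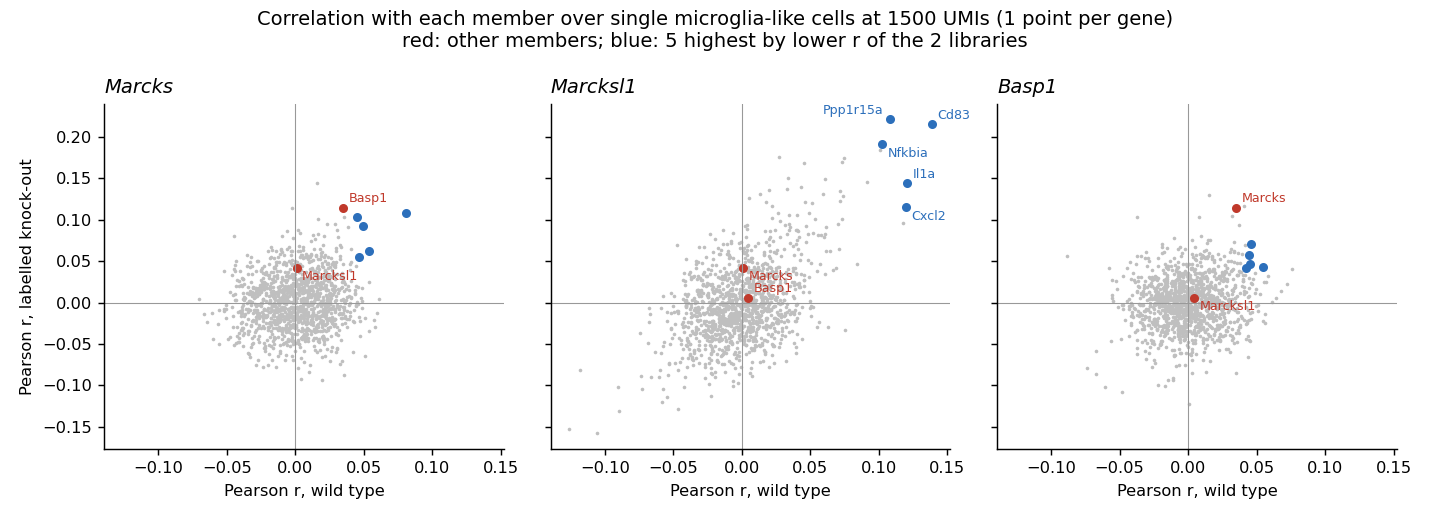
Pearson r of each of 1273 genes with Marcks, Marcksl1 or Basp1 over microglia-like cells at 1500 UMIs, in the library labelled knock-out (vertical axis) against wild type (horizontal axis), 1 point per gene, with the other members in red and the 5 genes most alike in blue. For Marcksl1 a tail of genes with Cd83, at 0.216 in cells labelled knock-out and 0.139 in wild type, lies to the upper right, and for Marcks and Basp1 the points form a cloud around 0.

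Marcksl1 was then set against the summed UMIs of gene lists. Cells of each library were put in 3 groups of nearly equal size by the sum of an inflammatory cytokine and NF-kB list of 23 genes. The list holds Cd83, Il1a and Nfkbia, named above for their r with Marcksl1, so its groups are no separate support for those values. Nfkbia had 4554 CPM and Cd83 1860 CPM in microglia-like cells labelled knock-out, and 2859 and 1189 CPM in wild-type ones. In the library labelled knock-out, Marcksl1 had 353 CPM (310 to 401) in the group with the lowest sums, 535 in the middle and 965 CPM (892 to 1041) in the group with the highest, 2.73 times the lowest. In wild-type cells the 3 levels were 81.5 CPM (65.5 to 100.3), 117 and 178 CPM (154 to 205), 2.19 times the lowest. Wild-type cells with the highest sums thus had less Marcksl1 than cells labelled knock-out with the lowest. In the highest group labelled knock-out, Marcks was at 1.18 times and Basp1 at 1.19 times the lowest group, against 1.03 and 1.13 times in wild type. Marcks in the cells labelled knock-out had 885 CPM (816 to 959) in the lowest group and 1043 CPM (967 to 1123) in the highest, with intervals that stood apart. Basp1 there had 498 CPM (446 to 554) in the lowest group and 661 CPM (601 to 725) in the middle one, which also stood apart, and 593 CPM (536 to 654) in the highest.

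By a list of 25 homeostatic microglia genes the order was the reverse. Marcksl1 had 825, 631 and 398 CPM (352 to 449) in the low, middle and high groups labelled knock-out, and 176, 127 and 74.1 CPM (58.8 to 92.1) in the wild-type groups, so that the highest group had 0.483 times the lowest in the library labelled knock-out and 0.421 times in wild type. The homeostatic list gave 0.834 times for Marcks and 0.842 times for Basp1 in the cells labelled knock-out, against 0.926 and 0.823 times in wild-type cells. Marcks in the cells labelled knock-out had 1051 CPM (975 to 1131) in the lowest homeostatic group and 876 CPM (807 to 949) in the highest, with intervals that stood apart. By immediate early genes the top group had 2.20 times the Marcksl1 level of the lowest in the library labelled knock-out and 1.45 times in wild type. By chemokine genes the values were 1.42 times in the cells labelled knock-out and 2.04 times in wild-type cells. Interferon and disease-associated microglia lists gave values of Marcksl1 between 0.857 and 1.08 times. The interferon sum had a median of 1 UMI in cells labelled knock-out and 2 UMIs in wild-type cells. Cells with equal sums were split between groups by their order in the data, so the interferon groups are partly arbitrary. Their values thus show neither a relation nor its absence. By the 13 microglia markers, the top group had 0.514 times the Marcksl1 level of the lowest in the library labelled knock-out and 0.494 times in wild type. For the endothelial markers found in these cells, the top group had 1.02 times the lowest in the library labelled knock-out and 0.787 times in wild type. For erythrocyte markers it had 1.04 times in the library labelled knock-out and 0.991 times in wild type. The erythrocyte sum had a median of 2 UMIs in cells labelled knock-out and 5 UMIs in wild-type cells, so the limit of equal sums holds for it too. Cells share 1 total of UMIs here, so a larger sum of 1 list leaves fewer UMIs for the rest.

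**Figure D5:**
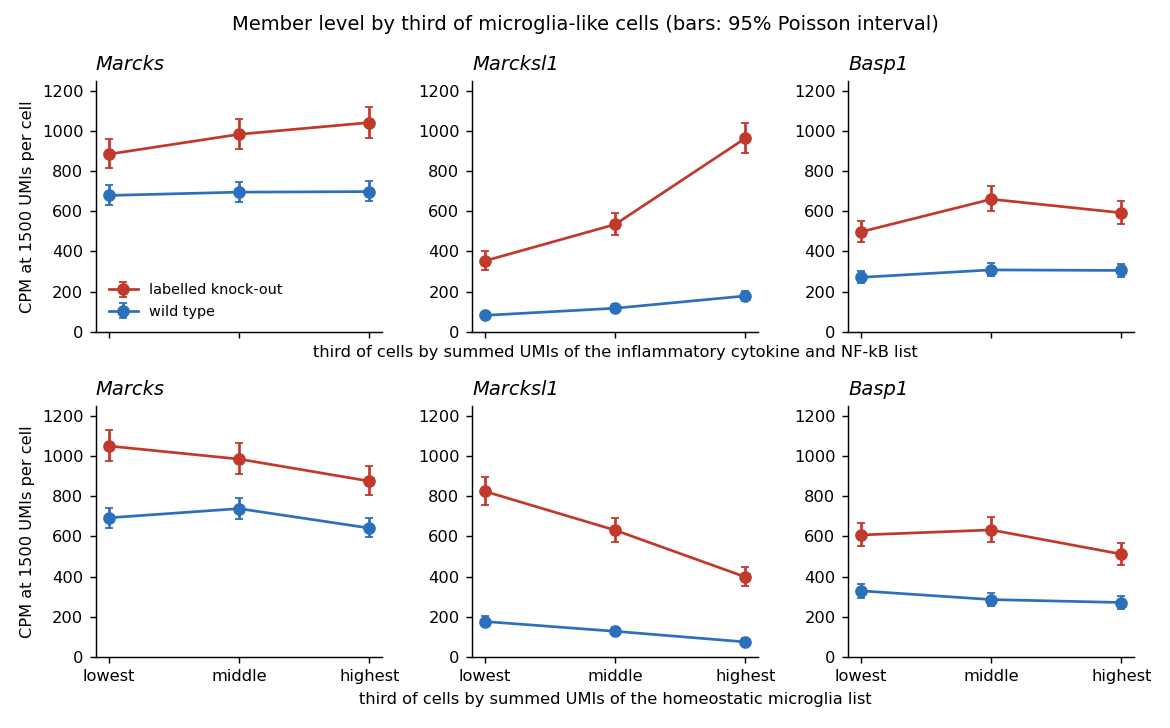
Level of each gene in CPM at 1500 UMIs per cell (vertical axis) in the lowest, middle and highest group of microglia-like cells (horizontal axis) by summed inflammatory cytokine and NF-kB genes (top row) or homeostatic microglia genes (bottom row), in the library labelled knock-out (red) and wild type (blue), with 95% Poisson intervals. Marcksl1 climbs in the top row to 965 CPM in cells labelled knock-out and 178 CPM in wild-type cells and declines in the bottom row, while the highest group of Marcks and Basp1 was between 0.823 and 1.19 times the lowest over both rows and libraries.

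At a finer clustering, each library's microglia-like cells split mostly into a chemokine-high and a chemokine-low cluster, of 659 and 690 cells in the library labelled knock-out and of 1003 and 1145 cells in wild type. Marcksl1 had 848 CPM (818 to 879) in the chemokine-high cells and 357 CPM (335 to 381) in the chemokine-low cells labelled knock-out, a 2.37-fold difference. In wild type it had 152 CPM (144 to 161) and 88.9 CPM (81.7 to 96.5), a 1.71-fold difference. In chemokine-high cells labelled knock-out Basp1 was 1.32-fold and Marcks 1.11-fold higher than in chemokine-low cells, against 1.12-fold and 1.03-fold in wild type. Between libraries, the Marcksl1 ratio was present in both kinds, at a log2 of 2.48 (2.38 to 2.57) in chemokine-high and 2.01 (1.85 to 2.16) in chemokine-low cells. In chemokine-high cells the log2 ratio was 1.11 (1.03 to 1.18) for Basp1 and 0.53 (0.47 to 0.59) for Marcks. In chemokine-low cells it was 0.87 (0.77 to 0.97) for Basp1 and 0.43 (0.36 to 0.50) for Marcks. Median depth also differed, with 4022 UMIs in chemokine-high and 3113.5 in chemokine-low cells labelled knock-out, and 7294 in chemokine-high and 4428 in chemokine-low cells of wild type. Within the chemokine-high cells labelled knock-out, 16.5% of cells held 3 or more Marcksl1 UMIs at 1500 UMIs, against 3.33% of the chemokine-low ones. There Marcksl1 had an r of 0.215 with the inflammatory list over 659 cells, and of -0.0003 over the 690 chemokine-low cells. In wild type the r was 0.135 over 1003 chemokine-high cells and 0.087 over 1145 chemokine-low cells.

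Counts for the enzymes and partners that act on these proteins stand beside the share over all 5760 genes, of which 1.84% were at least 2-fold higher in the library labelled knock-out and 5.42% lower. Protein kinase C genes, whose products phosphorylate MARCKS, had 4 of 9 measured at 20 CPM in microglia-like cells, 0 at least 2-fold higher or lower, and a median log2 ratio of 0.19. Prkca had 48.0 CPM in the library labelled knock-out and 26.4 CPM in wild type (log2 ratio 0.86, 0.64 to 1.08), and the log2 ratios of Prkcd and Prkch were 0.41 and -0.48. Of calmodulin and calcineurin genes 7 of 8 were measured, none past 2-fold, with a median of 0.37. Calm2, which encodes calmodulin, was at 0.42 and the calcineurin subunit gene Ppp3r1 at 0.87. Of the N-myristoylation genes 2 of 4 were measured, none past 2-fold, and Nmt1, the myristoyl transferase, was at 0.23.

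Genes that make or use PIP2, the lipid that MARCKS proteins hold, had 12 of 19 measured, 0 at least 2-fold higher, 1 lower and a median of 0.38. The lower one was the phospholipase C gene Plcb1, with 6.50 CPM in microglia-like cells labelled knock-out and 28.6 CPM in wild-type ones (-2.14, -2.64 to -1.67). Plcb1 had 116 CPM in endothelial-like cells labelled knock-out and 109 CPM in wild-type ones, and the part of endothelial RNA in its microglia-like level was not tested. Plcg2, the phospholipase C of immune receptor signalling, was at 0.81. Actin cytoskeleton genes had 34 of 38 measured, 1 at least 2-fold higher, 0 lower and a median of 0.11. The higher one was the actin cross-linker gene Actn1, with 61.5 CPM in the library labelled knock-out and 16.2 CPM in wild type (1.92, 1.69 to 2.16). The profilin gene Pfn1 had 1014 CPM in the library labelled knock-out and 629 CPM in wild type (0.69), the actin nucleator gene Actr2 was at 0.77 and the scaffold gene Iqgap1 at -0.87. Of the Basp1 nuclear partners 5 of 6 were measured, none past 2-fold, with a median of -0.11, and their best known member Wt1 had 0 UMIs in microglia-like cells of both libraries, which allows up to 3 in each. Gap43, the neuronal relative of Basp1, had 1 UMI in microglia-like cells labelled knock-out and 8 in wild-type ones, below 20 CPM in both.

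Lists of microglial state were also read in this contrast, where 1.84% of all 5760 genes were at least 2-fold higher and 5.42% lower. The inflammatory cytokine and NF-kB list, whose sum was higher in cells with more Marcksl1, had 20 of 23 measured, 2 at least 2-fold higher (Tnfaip3 and Nfkb1) and 0 lower, with a median of 0.61. Immediate early genes had 24 of 26 measured, 5 at least 2-fold higher (Nr4a1, Socs3, Maff, Zfp36 and Egr2), 0 lower and a median of 0.58. The homeostatic list, whose sum was lower in cells with more Marcksl1, had all 25 measured, 2 higher (Crybb1 and Golm1), 2 lower (Olfml3 and Serpine2) and a median of 0.38. Chemokine genes had 12 of 13 measured, 1 higher (Ccl24), 1 lower (Ccl5) and a median of 0.19. Disease-associated microglia genes had 15 of 20 measured, 0 higher, 3 lower (Lyz2, Lgals3 and Fabp5) and a median of -0.27, and interferon genes 14 of 16 measured, 0 higher, 7 lower and a median of -0.95. All 7 had more CPM in endothelial-like than in microglia-like cells of both libraries. Ifitm3, an antiviral membrane protein gene, had 249 CPM in microglia-like cells labelled knock-out and 800 CPM in wild-type ones (-1.68), beside 2059 CPM in endothelial-like cells labelled knock-out and 1828 CPM in wild-type ones. The part of endothelial RNA in the interferon list was not tested. Over all 5760 genes the median was -0.04.

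Over 15 class-by-library sums with at least 10 cells, the genes most like each member in level were looked for among 3363 genes. The highest Pearson r of log2(CPM + 20) for Marcks were with Unc93b1, a chaperone of endosomal Toll-like receptors (0.97), the leukocyte tetraspanin gene Cd53 (0.96), Otud1, Ly86 and Commd8. Basp1 was closest to the ribonuclease gene Rnase4 (0.98), Marcks (0.95), Arsb, Runx1 (0.94) and Smap2. Marcksl1 had lower values, at most 0.84 for the lactate transporter gene Slc16a3, then Naa15, the properdin gene Cfp (0.82), Cln8 and St3gal5. Its r was 0.65 with Marcks and 0.74 with Basp1. The sums share libraries, depth and free RNA, so these values describe likeness of levels and carry no test.

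Of the 30 measured genes nearest to the members on their chromosomes, 0 were at least 2-fold higher, beside 1.84% of all genes, and 1 was lower, beside 5.42%. Of the 10 measured genes nearest to Marcksl1, within 187 kb, none was past 2-fold, and their log2 ratios ran between -0.80 (Ccdc28b) and 0.94 (Fam167b). Hdac1, the nearest, 0.119 kb away, was at 0.27. The 10 nearest to Marcks, which reach out to 4380 kb, ran between -0.66 and 0.96. Of the 10 nearest to Basp1, which reach out to 7669 kb, 1 was at least 2-fold lower, Myo10 at -1.57, and the highest was 0.28.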

How the data were processed

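Sorted fluorescent spinal cord cells gave 1 droplet 3′ library per group (22800 sorted and 2600 recovered cells labelled knock-out, 23500 and 4500 wild type, per the labels). The deposited values were UMI counts per gene and barcode, not normalized. Per the submitters' processing notes, the tools were Cell Ranger 2.0.1, Seurat 2.1.0 and STAR, and the builds GRCm38.p5 and mm10, whose roles are not stated. The members and lists were chosen with earlier results of these data known.

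Barcodes under 300 genes or above 10% mitochondrial UMIs were dropped (8 labelled knock-out and 0 wild-type ones). Both libraries were clustered together without the members, Runx1 and the sex-linked genes (scanpy 1.11.5, 2000 variable genes, 30 principal components, 15 neighbours, leidenalg 0.10.2 at resolution 0.5, then 1). No batch correction was used. No doublets were removed for the values reported, and leaving out the cells with the highest Scrublet doublet scores (0.8% of cells per 1000 cells of a library) was 1 alternative. Clusters were named from 21 marker lists, with a scoring rule chosen once the clusters had been seen. Summed UMIs were divided by all UMIs of the same cells (CPM), with exact Poisson, conditional binomial and Clopper-Pearson intervals at 95% (scipy 1.17.1). UMIs are molecules, and intervals and floors (3 counts) cover none of the spread between mice or libraries. A gene was measured if it had 20 CPM in either library. Cells were thinned to 1500 UMIs without replacement, and none was shallower. Named genes were the members, Runx1, for each member the 5 most alike by each of 2 correlations, up to 4 genes per list with the largest ratios, and the outermost neighbours. The neighbours, and Egr2 beside its count, were named after their values were seen. The calculation was checked on simulated data.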

Additional observations from a re-analysis of the deposited data

Results flagged for a closer look

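Marcks differed in direction between 2 cell classes. Its log2 ratio, library labelled knock-out over wild type, was 0.49 in microglia-like cells and -0.46 in endothelial-like cells. The difference between the classes was not tested, since each group is 1 library. Endothelial-like cells held 21.05% of the microglia-like level of microglia markers in the library labelled knock-out and 41.8% in wild type, and Marcks stood at 17.3% of its own microglia-like level there in the library labelled knock-out and 33.4% in wild type. The part of this RNA in the Marcks ratio was not tested.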

How the results depend on the processing

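No paired analysis was possible because each group is 1 library. Over 11 alternatives each, the log2 ratio in microglia-like cells ran between 0.24 and 0.53 for Marcks, 2.09 and 2.37 for Marcksl1, and 0.70 and 1.20 for Basp1, and none reversed. Of 33 values, 29 moved by less than their counting interval. The other values were those after removal of estimated background, 0.24 for Marcks, 2.09 for Marcksl1 and 0.70 for Basp1, and 1.20 for Basp1 in 462 cells labelled knock-out and 928 wild-type cells with 3000 to 5000 UMIs, an alternative chosen after seeing the data. Background was put at 23.5% of microglia-like UMIs labelled knock-out and 51.6% of wild-type ones, and Basp1 lies under 2-fold once it is removed. In endothelial-like cells the same removal left negative values and no ratio, and how well it holds in microglia-like cells was not tested. Shares of cells depended on depth by construction. Thinned to 3000 UMIs, with 521 cells labelled knock-out and 23 wild-type cells left out as too shallow, they were 92.9% for Marcks, 73.2% for Marcksl1 and 79.7% for Basp1 in the cells labelled knock-out, and 85.4%, 28.3% and 56.5% in wild-type cells. Without thinning they were 93.3%, 74.9% and 80.7% in the cells labelled knock-out, and 94.9%, 47.4% and 76.5% in wild-type cells. With another seed the wild-type Basp1 share was 33.3%. All 30 co-expression alternatives moved by less than their interval. Genes at least 2-fold higher numbered 106, then 31 at a minimum of 100 CPM and 1015 with at least 3 UMIs, and lower ones 312, 78 and 1568, since the minimum sets how many genes enter. Where no construction is named, the cause was not tested.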
